A study of Mus musculus with 9 samples.

Results

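The BCL-2 family holds the proteins that decide whether the mitochondrial outer membrane is kept intact or opened during apoptosis. Its anti-apoptotic members (Bcl2, Bcl2l1 which encodes BCL-XL, and Mcl1) bind and restrain the effectors Bax and Bak1, which form the pores through which cytochrome c leaves the mitochondrion, and the BH3-only members (Bcl2l11 which encodes BIM, Bmf, Bad, Bbc3 which encodes PUMA, and Pmaip1 which encodes NOXA) engage the other proteins to promote that step. Several members have been tied to the JNK pathway: BIM and BMF are JNK substrates, the transcription factor JUN is one of the regulators of Bcl2l11, and MCL1 is phosphorylated by stress kinases. These 10 genes were followed in primary mouse lung endothelial cells (MLEC) with or without targeted deletion of the kinase genes Mapk8 (JNK1) and Mapk9 (JNK2). The aim was an account of whether mRNA levels of the 10 genes differed between the genotypes. They were taken by symbol from the deposited gene tables, where each matched 1 of 37104 loci. Bcl2l1, Bcl2l11 and Bmf lie on chromosome 2, Bax and Bbc3 on chromosome 7, and the other 5 on 5 different chromosomes.

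RNA-seq was done on 9 libraries in 3 groups of 3, all C57BL/6J, all from adult animals of 10 to 12 weeks, and all carrying Jnk3-/-, so that no group had a functional Jnk3 gene. ECtrl cells were Cdh5-Cre+ Jnk1+/+ Jnk2+/+ Jnk3-/-, EfCtrl cells were Cdh5-Cre- Jnk1LoxP/LoxP Jnk2LoxP/LoxP Jnk3-/-, and E3KO cells were Cdh5-Cre+ Jnk1LoxP/LoxP Jnk2LoxP/LoxP Jnk3-/-. The Cdh5 promoter drives the Cre recombinase in endothelium, and each library was made from its own isolation, in which lungs of 4 mice were pooled and cells bearing ICAM2 were captured and grown, so a library also holds whatever other cells passed the selection. Levels are fragments per kilobase of transcript scaled to the size of the library (FPKM), which take transcript length into account and can therefore be compared between genes. The number of reads behind each library is unknown.

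The targeted genes were checked first. Mapk9 lay between 42.7 and 50.9 FPKM in the 6 control libraries and at 27.6, 35.1 and 20.7 FPKM in E3KO replicates 1, 2 and 3 (limma adjusted p = 0.0359 against the mean of both controls, and up to 0.0983 with 1 library left out, the call being lost without any library other than E3KO replicate 2). Mapk8 lay between 14.0 and 17.9 FPKM in the controls, at 8.77 and 4.65 FPKM in E3KO replicates 2 and 3, and at 20.7 FPKM in replicate 1, above every control. Because of that value the last library is called the library labelled E3KO replicate 1. It also stood apart in its FPKM sum, of which 96.4% fell to 10 symbols (40.9% to 56.8% in the other libraries), and in the airway epithelial gene Scgb1a1, at 46.2 FPKM against at most 1.87 FPKM elsewhere. The difference of each member from the controls is given with and without it. Mapk10 (JNK3) was at or below 0.27 FPKM in all 9 libraries. Of the 10 endothelial markers listed, Pecam1 and Cdh5 were at 612.9 FPKM or more in every library. Vwf, from the same list, was low, at 0.88 to 2.15 FPKM in controls and at 0.36, 0.36 and 1.63 FPKM in E3KO.

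In the control cells the family ranged from Mcl1 at 120.9 ± 16.1 FPKM (SD, n = 6) to Bbc3 at 1.12 ± 0.380 FPKM. Bcl2l1 followed at 55.5 ± 7.54 FPKM, Bcl2l11 at 54.1 ± 1.46 FPKM and Bax at 38.9 ± 6.52 FPKM. Bak1 came next at 18.5 ± 2.57 FPKM, then Pmaip1 at 11.5 ± 3.40 FPKM and Bad at 9.83 ± 3.12 FPKM. Bmf at 2.88 ± 0.434 FPKM, Bcl2 at 1.32 ± 0.381 FPKM and Bbc3 were the 3 lowest. Of the 3 anti-apoptotic genes, Mcl1 and Bcl2l1 were thus abundant and Bcl2, the founding member, was scarce: in each control library Bcl2l1 exceeded Bcl2 by 24.9-fold to 64.4-fold. BIM mRNA was the most abundant of the BH3-only messages and also, relative to its mean, the one that varied least between control libraries.

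Neighbours in this order were compared within each control library by an exact two-sided sign-flip permutation test over 6 libraries, in which the smallest possible p is 0.0312; the 9 pairs were formed from the means of the same libraries. In 6 of the 9 pairs the order held in every control library (exact permutation p = 0.0312 each, 0.0469 after adjustment over the 9 pairs). Bcl2l1 and Bcl2l11 could not be ordered (higher in 3 of 6 libraries, mean log2 difference 0.03 ± 0.16 SD, exact permutation p = 0.781), nor could Pmaip1 and Bad (exact permutation p = 0.531) or Bcl2 and Bbc3 (exact permutation p = 0.250). The plot of FPKM by library shows this ladder of levels and how far the groups overlap on it.

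**Figure D1:**
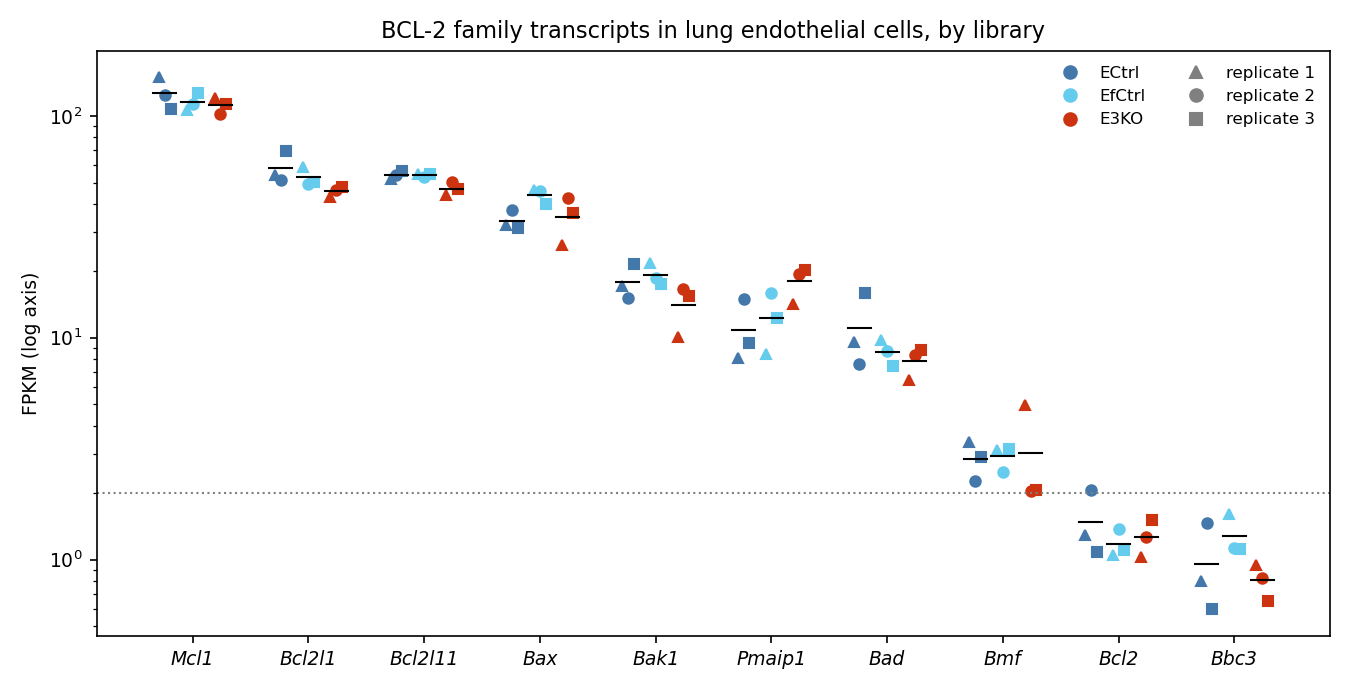
FPKM (log axis) of the 10 BCL-2 family genes in 9 libraries, ordered by their mean in the 6 control libraries; colours mark the group, symbols the replicate, black bars the group mean, and the dotted line the minimum of 2 FPKM for the test across genes. Mcl1 is highest at 101.7 to 149.0 FPKM, Bcl2 and Bbc3 lie at or near 1 FPKM, and in E3KO the means of Pmaip1 and of Bcl2l11 lie above those of Bak1 and of Bcl2l1.

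No member passed the test for a difference between genotypes. The test was limma on log2(FPKM + 1) across 10605 genes with a mean of at least 2 FPKM in a group, with Benjamini-Hochberg adjustment over all of them, and 8 of the 10 members entered it; Bcl2 and Bbc3 fell below the minimum. Between E3KO and ECtrl 0 of the 8 members were called, where 2.25% of all genes tested were called. Between E3KO and EfCtrl 0 of 8 were called (background 0.952%), between EfCtrl and ECtrl 0 of 8 (background 0%, that is 0 of 10605 genes, with 195 at an unadjusted p under 0.05), and between E3KO and the mean of both controls 0 of 8 (background 4.8%). At an unadjusted p under 0.05 stood Bcl2l1 and Pmaip1 against ECtrl, no member against EfCtrl, and Bcl2l11 and Pmaip1 against the mean of both controls. Of all genes tested 20.1%, 17.7% and 23.8% did so in these 3 comparisons, so 2 of 8 is near the background. Both E3KO comparisons share the E3KO libraries, and the comparison with the mean uses all of the same samples. At each of these backgrounds fewer than 1 call would fall among 8 genes, so a count of 0 is no result about the family, and the size of each difference and its interval are given instead.

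**Figure D2:**
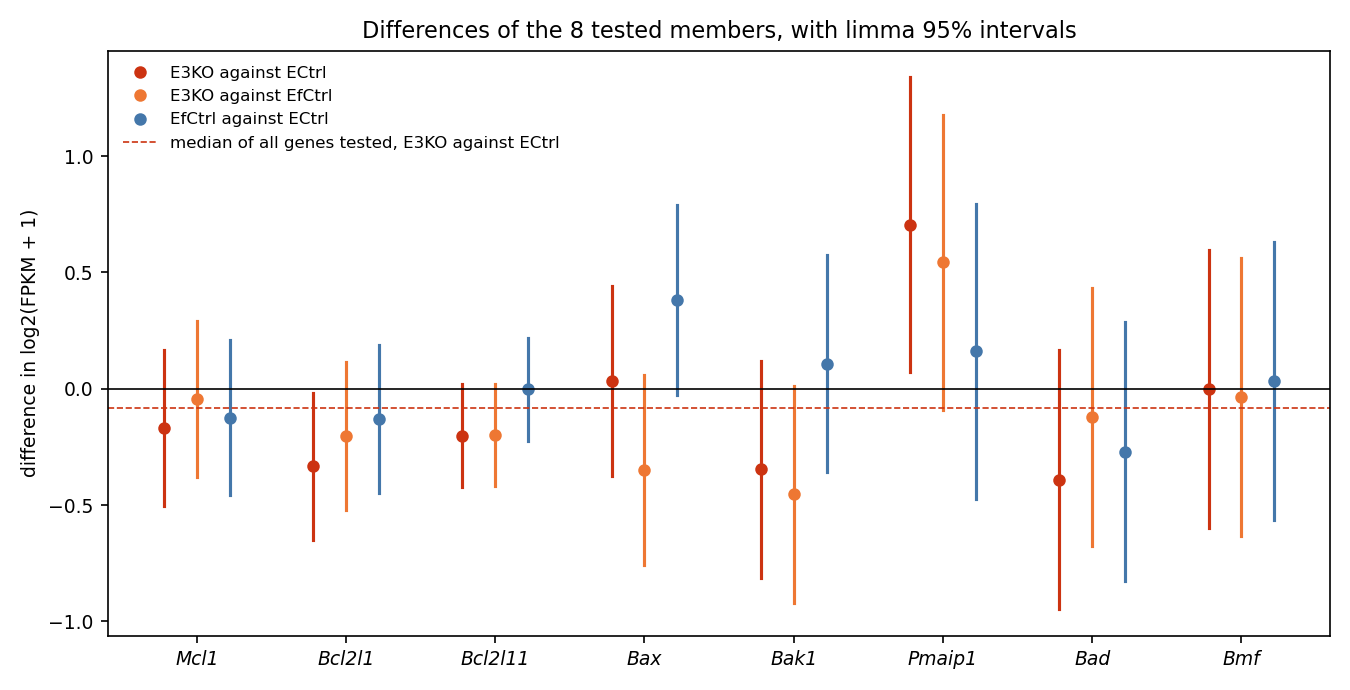
Difference in log2(FPKM + 1) for the 8 tested members (points) with 95% limma intervals (lines), for E3KO against ECtrl, E3KO against EfCtrl and EfCtrl against ECtrl; the dashed line is the median of all genes tested in the first comparison, -0.08. All intervals but those of Bcl2l1 and Pmaip1 against ECtrl include 0.

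Bcl2l11 and Bcl2l1, a pro-death and a pro-survival gene of nearly equal level, were the members whose 3 E3KO libraries all lay below all 6 control libraries. Among the 10605 genes tested, 16.6% had E3KO libraries wholly outside the control range, 11.5% below and 5.18% above, so 2 such genes of 8 is near the background. Both genes are on mm10 chromosome 2, Bcl2l11 at chr2:128126038-128162547 on the plus strand and Bcl2l1 at chr2:152780668-152831728 on the minus strand, and the promoter windows that start at the outer end of their loci are printed here because they are the sequences upstream of the pair of transcripts that separated (RefSeq, GRCm38.p6, 250 bases before to 50 after the start, 5′ to 3′ on the gene's strand, with matches to the searched motifs in capitals).

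Bcl2l11, chr2:128125788-128126087, plus strand: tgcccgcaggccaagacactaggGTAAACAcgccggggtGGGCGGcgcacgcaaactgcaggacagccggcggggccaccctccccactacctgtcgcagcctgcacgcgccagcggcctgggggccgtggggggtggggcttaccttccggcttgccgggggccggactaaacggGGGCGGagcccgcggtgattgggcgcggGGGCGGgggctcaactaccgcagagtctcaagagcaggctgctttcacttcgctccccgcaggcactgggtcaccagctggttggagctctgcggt
Bcl2l1, chr2:152831679-152831978, minus strand: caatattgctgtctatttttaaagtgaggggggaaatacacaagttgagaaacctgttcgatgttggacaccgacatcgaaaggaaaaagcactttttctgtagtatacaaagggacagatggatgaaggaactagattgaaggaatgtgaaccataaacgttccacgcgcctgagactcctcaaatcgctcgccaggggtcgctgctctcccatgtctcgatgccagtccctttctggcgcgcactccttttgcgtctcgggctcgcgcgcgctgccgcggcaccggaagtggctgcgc

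On both strands, 5 motifs were searched: the AP-1 element TGACTCA, the CRE TGACGTCA, the FOXO element GTAAACA, the GC box GGGCGG and the TATA box TATAAA, of which no pair of matches overlapped in these windows. The Bcl2l11 window held 1 FOXO match, 227 bases before the start, and 3 GC boxes, and it was 71.0% G or C. The Bcl2l1 window held no match to any of the 5 and was 52.3% G or C. Over the 17 windows of the 9 members in the RefSeq table (Pmaip1 has no entry), the FOXO letters occurred in 2 (Bcl2l11 and Bbc3) and the GC box in 10, while the AP-1, CRE and TATA letters occurred in 0. Of all 32851 windows in the table, 3.65% held the FOXO letters, 35.7% the GC box, 5.2% the AP-1 letters, 1.79% the CRE letters and 13.6% the TATA letters.

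Bcl2l11 was measured at 52.1, 53.8 and 56.5 FPKM in ECtrl, at 54.4, 53.2 and 54.6 FPKM in EfCtrl, and at 43.9, 50.4 and 46.6 FPKM in E3KO replicates 1, 2 and 3. The 6 controls thus sat in a narrow band, and the E3KO libraries lay under it, with replicate 2 just below the lowest control. The mean was 47.0 ± 3.25 FPKM (SD, n = 3) against 54.1 ± 1.46 FPKM (SD, n = 6), a change of -13.1%. The difference from ECtrl was -0.20 ± 0.10 (log2, SE; limma adjusted p = 0.287) and from EfCtrl -0.20 ± 0.10 (limma adjusted p = 0.326), the same size against either control, and from the mean of both -0.20 with a 95% interval of -0.39 to -0.01 (limma adjusted p = 0.195). The exact two-sided permutation test of 3 against 6 libraries gave p = 0.0119, the smallest that its 84 splits allow. Here and below, the p of this test is not adjusted over the members. Without the library labelled E3KO replicate 1 the 2 remaining libraries were still below every control (difference -0.16 in limma, adjusted p = 0.314).

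Bcl2l1 was measured at 54.1, 51.2 and 69.4 FPKM in ECtrl, at 58.5, 49.3 and 50.6 FPKM in EfCtrl, and at 43.1, 46.2 and 47.6 FPKM in E3KO. The E3KO values were closer to each other than those of either control group, and ECtrl replicate 3 was the highest. The mean was 45.6 ± 2.29 FPKM against 55.5 ± 7.54 FPKM in the controls, a change of -17.8%. Against ECtrl the difference was -0.33 ± 0.14 (log2, SE; limma adjusted p = 0.228), against EfCtrl -0.20 ± 0.14 (limma adjusted p = 0.468), and against the mean of both -0.27 with a 95% interval of -0.54 to 0.01 (limma adjusted p = 0.22). The exact permutation test of 3 against 6 libraries gave p = 0.0476. Without the library labelled E3KO replicate 1 the other E3KO libraries were still below every control (difference from the mean of both controls -0.23, limma adjusted p = 0.362).

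The separation of these genes depended on scaling. Over all genes tested the E3KO libraries had a median difference of -0.08 from the mean of the controls on the same log2 scale, and 61.8% of genes had a difference below 0. When each library was centred on its median, the differences became -0.13 for Bcl2l11 and -0.20 for Bcl2l1, the E3KO and control values of both genes overlapped, and 0 of the 10 members, in place of 2, lay outside the control range, where 15.9% of all genes tested still did (8.19% below and 7.73% above); the exact permutation p was then 0.0238 for Bcl2l11 and 0.0833 for Bcl2l1. The authors' own group values, which were not the means of the library values, were 56.2, 55.8 and 53.1 FPKM for Bcl2l11 in ECtrl, EfCtrl and E3KO, and 62.9, 56.1 and 53.6 FPKM for Bcl2l1.

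**Figure D3:**
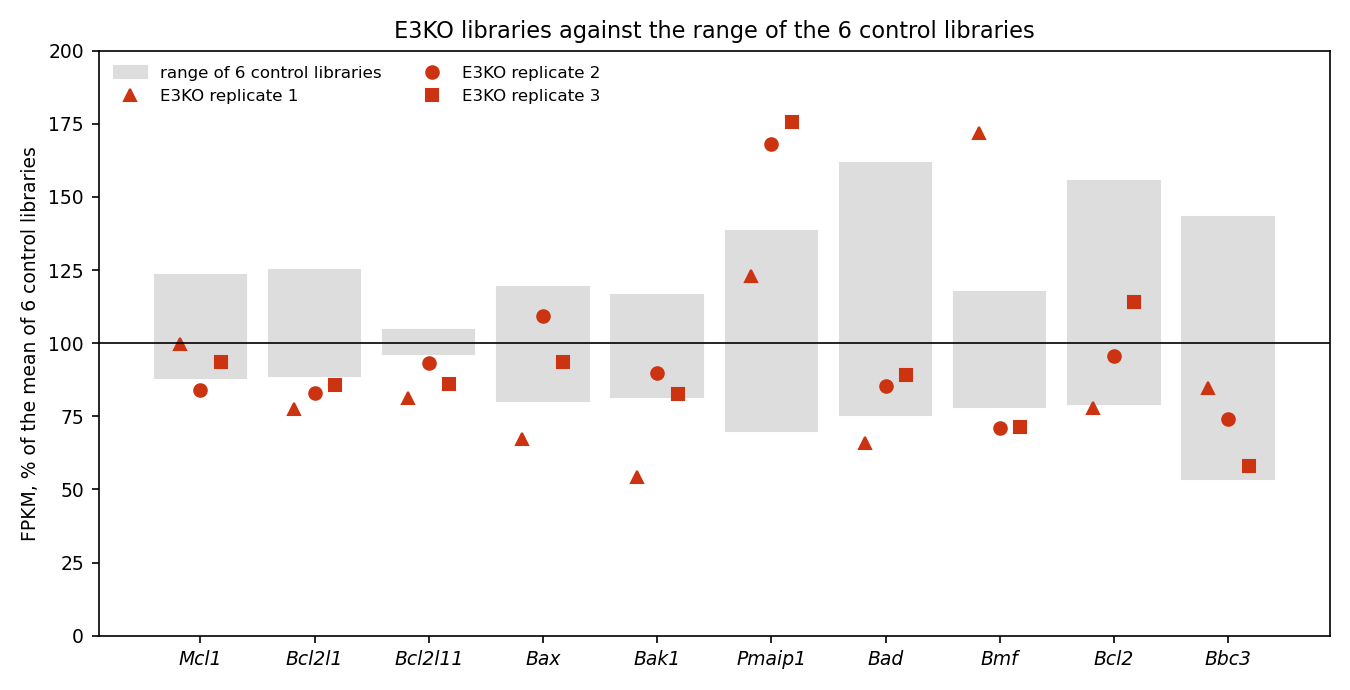
FPKM of the 3 E3KO libraries (symbols, by replicate) as a percentage of the mean of the 6 control libraries, with the range of those 6 as a grey box, for each member. The symbols of Bcl2l1 and Bcl2l11 all lie under their boxes, replicates 2 and 3 of Pmaip1 lie above theirs, and replicates 2 and 3 of Bmf lie under theirs while replicate 1 lies above.

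Pmaip1 was the tested member with the largest difference, and it was higher in E3KO. NOXA, its product, binds MCL1 in preference to other anti-apoptotic proteins, and the gene is a known p53 target. It was measured at 8.08, 15.0 and 9.46 FPKM in ECtrl, at 8.43, 15.9 and 12.3 FPKM in EfCtrl, and at 14.2, 19.4 and 20.3 FPKM in E3KO. The 2 E3KO libraries other than the one labelled replicate 1 exceeded every control, and that library lay inside the control range, below 2 of the 6 controls. The mean was 18.0 ± 3.29 FPKM against 11.5 ± 3.40 FPKM, a change of 55.6%. The difference was 0.70 ± 0.28 against ECtrl (log2, SE; limma adjusted p = 0.210), 0.54 ± 0.28 against EfCtrl (limma adjusted p = 0.346) and 0.62 against the mean of both, with a 95% interval of 0.08 to 1.17 (limma adjusted p = 0.166). The exact permutation test of 3 against 6 libraries gave p = 0.0595. Without the library labelled E3KO replicate 1 the difference from the mean of both was 0.78 (limma adjusted p = 0.15).

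Ratios of members within a library do not depend on how the library was scaled. Of the 45 pairs of members, 41 had the same order in all 9 libraries, and 1 pair was turned round in every library: Bak1 exceeded Pmaip1 in all 6 controls, by 1.01-fold to 2.56-fold, and Pmaip1 exceeded Bak1 in all 3 E3KO libraries, where Bak1 was at 0.708, 0.858 and 0.757 of the level of Pmaip1. For 6 pairs the ratio did not overlap between E3KO and controls, and these share 1 gene, Pmaip1, paired with Bcl2l1, Bcl2l11, Bax, Bak1, Bad and Bcl2. Over all pairs of 10337 tested genes without a 0 in any library, 17.3% did not overlap, so 6 of 45 is not above the background; without the library labelled E3KO replicate 1 it was 9 of 45, against 28.2%. The ratio of Bcl2l1 to Pmaip1 was 3.09 to 7.33 in the controls and 2.35 to 3.04 in E3KO. The ratio of Mcl1 to Pmaip1, the partners with a known preference for each other, was 7.06 to 18.4 in the controls and 8.49, 5.24 and 5.57 in E3KO, so it overlapped through the library labelled replicate 1. These pairs were picked out after the values were seen and carry no test.

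Against EfCtrl both effectors were lower in E3KO, and against ECtrl only Bak1 was, with none of these differences called. Bax was measured at 32.0, 37.8 and 31.1 FPKM in ECtrl, at 46.3, 45.7 and 40.2 FPKM in EfCtrl, and at 26.1, 42.5 and 36.3 FPKM in E3KO. All EfCtrl libraries lay above all ECtrl libraries, and the E3KO libraries ranged from below the lowest ECtrl value into the EfCtrl range. The widest difference of Bax was thus that between the control groups (0.38 ± 0.18, log2, SE; limma adjusted p = 1), while E3KO stood at 0.03 from ECtrl (limma adjusted p = 0.937) and at -0.35 from EfCtrl (limma adjusted p = 0.349). Without the library labelled E3KO replicate 1, which had the lowest Bax of all, the difference from the mean of both controls went from -0.16 to 0.03. The Bax locus overlaps the annotated gene Gm45808 on the same strand, so reads of that gene may be in the Bax value.

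Bak1 was measured at 17.1, 15.1 and 21.4 FPKM in ECtrl, at 21.6, 18.7 and 17.4 FPKM in EfCtrl, and at 10.0, 16.6 and 15.3 FPKM in E3KO. All E3KO libraries were below all EfCtrl libraries and overlapped with ECtrl. Against the mean of both controls the difference was -0.40 with a 95% interval of -0.80 to 0.0038 (limma adjusted p = 0.214; exact permutation p = 0.0476 over 3 against 6 libraries), and without the library labelled E3KO replicate 1 it was -0.19 (limma adjusted p = 0.473). The locus that carries the Bak1 symbol in the tables runs past the annotated gene and also spans Zbtb9 and Ggnbp1, so reads of these neighbours may be in its value.

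The remaining tested members were Mcl1, Bad and Bmf. Mcl1, a short-lived protein on which many cells depend for survival, was measured at 149.0, 123.4 and 107.1 FPKM in ECtrl, at 106.4, 112.5 and 126.7 FPKM in EfCtrl, and at 120.5, 101.7 and 112.9 FPKM in E3KO, with full overlap of E3KO and controls except for 1 library. Its difference from the mean of both controls was -0.11, and the 95% interval of -0.40 to 0.18 (limma adjusted p = 0.633) includes changes of either sign; without the library labelled E3KO replicate 1 the difference was -0.16 (limma adjusted p = 0.538).

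Bad, whose product is held inactive by phosphorylation in cells that receive survival signals, was measured at 9.57, 7.64 and 15.9 FPKM in ECtrl, at 9.78, 8.70 and 7.41 FPKM in EfCtrl, and at 6.47, 8.39 and 8.76 FPKM in E3KO. Only ECtrl replicate 3 lay clearly apart. The difference from the mean of both controls was -0.26 (95% interval -0.74 to 0.23, limma adjusted p = 0.481), and -0.14 without the library labelled E3KO replicate 1 (limma adjusted p = 0.771). The Bad locus overlaps Gpr137 on the opposite strand, and whether the counting used strand is not given in the sources used here.

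Bmf, like BIM a BH3-only protein bound to the cytoskeleton, was measured at 3.39, 2.25 and 2.89 FPKM in ECtrl, at 3.13, 2.48 and 3.14 FPKM in EfCtrl, and at 4.95, 2.04 and 2.06 FPKM in E3KO. The library labelled E3KO replicate 1 was the highest of all 9 and the other E3KO libraries were the lowest. With all 3 the difference from the mean of both controls was -0.02 (95% interval -0.54 to 0.50, limma adjusted p = 0.966), and without replicate 1 it was -0.34 (limma adjusted p = 0.190).

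The members under the minimum were tested one by one. Bcl2 was at 1.29, 2.06 and 1.08 FPKM in ECtrl, at 1.05, 1.37 and 1.10 FPKM in EfCtrl, and at 1.03, 1.26 and 1.51 FPKM in E3KO (exact permutation p = 0.893, 3 against 6 libraries), and its locus holds an antisense gene. Bbc3, also a known p53 target, was at 0.80, 1.46 and 0.60 FPKM in ECtrl, at 1.60, 1.13 and 1.11 FPKM in EfCtrl, and at 0.95, 0.83 and 0.65 FPKM in E3KO (exact permutation p = 0.238). E3KO and control values overlapped for both. In the limma fit with no filter on low values, their differences from the mean of both controls were -0.03 (95% interval -0.34 to 0.29, limma adjusted p = 0.941) and -0.21 (95% interval -0.56 to 0.13, limma adjusted p = 0.535) on the log2(FPKM + 1) scale, which understates changes at such levels. Without the library labelled E3KO replicate 1 their differences in log2(FPKM + 0.1) were 0.09 for Bcl2, from -0.04, and -0.48 for Bbc3, from -0.37.

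Summed by role, the anti-apoptotic members gave 163 to 204 FPKM in the controls and 165, 149 and 162 FPKM in E3KO, mostly Mcl1. The effectors gave 49.1 to 67.9 FPKM in the controls and 36.2, 59.1 and 51.6 FPKM in E3KO. The BH3-only members gave 74.0 to 85.3 FPKM in the controls and 70.5, 81.1 and 78.3 FPKM in E3KO. The E3KO and control sums overlapped in each of the 3 classes.

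The other genes of the pathway were described in lists around the family, against the mean of both controls. Of 15 other BCL-2 family genes, 8 were tested and 0 were called (median log2 difference -0.08, as over all genes). The highest were the locus of the anti-apoptotic Bcl2l2, which also carries Pabpn1, at 37.4 ± 3.76 FPKM in controls and 36.1 ± 4.27 FPKM in E3KO, the mitophagy receptor Bnip3l at 36.5 ± 3.40 and 33.7 ± 0.984 FPKM, and the effector-like Bok at 29.0 ± 6.20 and 28.5 ± 0.241 FPKM. Bid, the BH3-only protein that links death receptors to mitochondria, and Bcl2l12 were singled out after their values were seen. Bid lay at 17.8, 20.1 and 21.6 FPKM in E3KO, above all controls at 12.9 to 17.6 FPKM (difference 0.39 ± 0.11, limma adjusted p = 0.0779). Bcl2l12 went the other way, at 1.95, 1.79 and 1.95 FPKM in E3KO, below all controls at 2.46 to 5.63 FPKM (difference -0.62 ± 0.20, limma adjusted p = 0.116). Of all genes tested, 5.18% lay wholly above and 11.5% wholly below the control range.

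Downstream of the mitochondrion, 0 of 10 tested apoptosome and caspase genes were called (median -0.13). Aifm1 was at 41.8 ± 6.64 FPKM in controls and 42.8 ± 17.2 FPKM in E3KO, and Apaf1, the scaffold of the apoptosome, was at 29.0 ± 2.00 and 34.6 ± 1.27 FPKM (limma adjusted p = 0.152). Among 4 caspase inhibitors 0 were called, with Xiap, Birc2 and Birc6 the highest. Among 15 partners and modifiers of BCL-2 proteins 0 were called, including Dynll1, the dynein light chain that holds BIM, at 257.8 ± 20.1 and 254.3 ± 9.97 FPKM, and the 14-3-3 genes Ywhaq and Ywhaz.

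Several genes of the p53, death receptor and transcription factor lists were called. Of all genes tested 4.8% were called against the mean of both controls, 2.25% against ECtrl and 0.952% against EfCtrl. Of 15 genes of the p53 list 3 were called higher and 0 lower against the mean of both controls (median 0.12, with 4 of 15 below 0). Against ECtrl 2 were called higher (Perp and Mdm2), and against EfCtrl 1 (Perp). Perp, a p53 target and membrane protein, lay at 1.89 to 6.54 FPKM in controls and at 19.1, 17.6 and 27.1 FPKM in E3KO (difference 2.07 ± 0.26, limma adjusted p = 0.0119). Mdm2, the ubiquitin ligase of p53, lay at 56.5 to 89.0 and at 128.5, 131.8 and 185.7 FPKM (0.99 ± 0.18, limma adjusted p = 0.0241), and Cdkn1a, the inhibitor p21, at 150.5 to 224.5 and at 252.1, 331.6 and 375.3 FPKM (0.73 ± 0.17, limma adjusted p = 0.0495). In all of these the E3KO libraries lay above every control. Against each control group alone the limma adjusted p of Cdkn1a was 0.0871 (ECtrl) and 0.121 (EfCtrl), and that of Mdm2 against EfCtrl was 0.0738. Trp53 itself was at 74.7 ± 8.96 and 72.2 ± 3.93 FPKM. Sesn1, named after its values were seen, went the other way. It lay at 17.9 to 32.7 FPKM in controls and at 10.6, 13.9 and 13.7 FPKM in E3KO. It was not called (limma adjusted p = 0.0816 against ECtrl and 0.183 against EfCtrl). Of the 3 p53 targets within the family, Pmaip1 had a difference of 0.62 and Bax of -0.16, and Bbc3 had a lower mean in E3KO, none of them called. Against the mean of both controls the call of Perp was lost without E3KO replicate 3 (17 of 18 alternatives kept it). That of Mdm2 was lost without EfCtrl replicate 1, EfCtrl replicate 3 or E3KO replicate 3 (15 of 18 kept it). The call of Cdkn1a was kept under 6 of 18 and was lost without any 1 library other than ECtrl replicate 3 or E3KO replicate 1. In that comparison the largest limma adjusted p over the alternatives was 0.0672 for Perp, 0.0916 for Mdm2 and 0.15 for Cdkn1a. The calls against single control groups were less stable. Against ECtrl, Perp was kept under 14 of 19 alternatives and Mdm2 under 4 of 19, with Mdm2 lost when any 1 library was left out. Against EfCtrl, Perp was kept under 8 of 19.

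In the death receptor list 1 of 11 tested genes rose and 1 fell against the mean of both controls. Ripk3, a kinase of necroptosis, lay at 6.72 to 14.9 FPKM in controls and at 21.2, 23.1 and 22.0 FPKM in E3KO (0.95 ± 0.21, limma adjusted p = 0.0435), and Tnfsf10, the ligand TRAIL, at 1.72 to 2.78 and at 0.362, 1.15 and 0.942 FPKM (-0.81 ± 0.16, limma adjusted p = 0.0321). Among 7 tested transcription factors known to act on BH3-only genes, Jun fell, from 11.3 to 14.7 FPKM in controls to 7.14, 9.24 and 8.15 FPKM in E3KO (-0.60 ± 0.12, limma adjusted p = 0.0329), and 0 rose. Taken against ECtrl and EfCtrl singly, Tnfsf10 was called against ECtrl (limma adjusted p = 0.0490), a call kept under 2 of 19 alternatives. Ripk3 (limma adjusted p = 0.0637 and 0.138) and Jun (limma adjusted p = 0.0597 and 0.0954) were called against neither. Tnfsf10 met the minimum of 2 FPKM only through ECtrl, with means of 2.36 FPKM in ECtrl, 1.95 in EfCtrl and 0.818 in E3KO. Its fall from ECtrl was thus measured against the group that let it into the test. With no filter on low values, its calls against ECtrl and against the mean of both controls were lost. Against the mean of both controls the call of Ripk3 was kept under 7 of 18 alternatives. It was lost without any 1 library other than ECtrl replicate 1 or 3 (limma adjusted p at most 0.123). Those of Tnfsf10 and Jun were kept under 9 of 18 each: Tnfsf10 was lost without any 1 library other than ECtrl replicate 1 or E3KO replicate 1 or 2 (limma adjusted p at most 0.0916), and Jun without any other than ECtrl replicate 2 or E3KO replicate 2 (limma adjusted p at most 0.109).

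**Figure D4:**
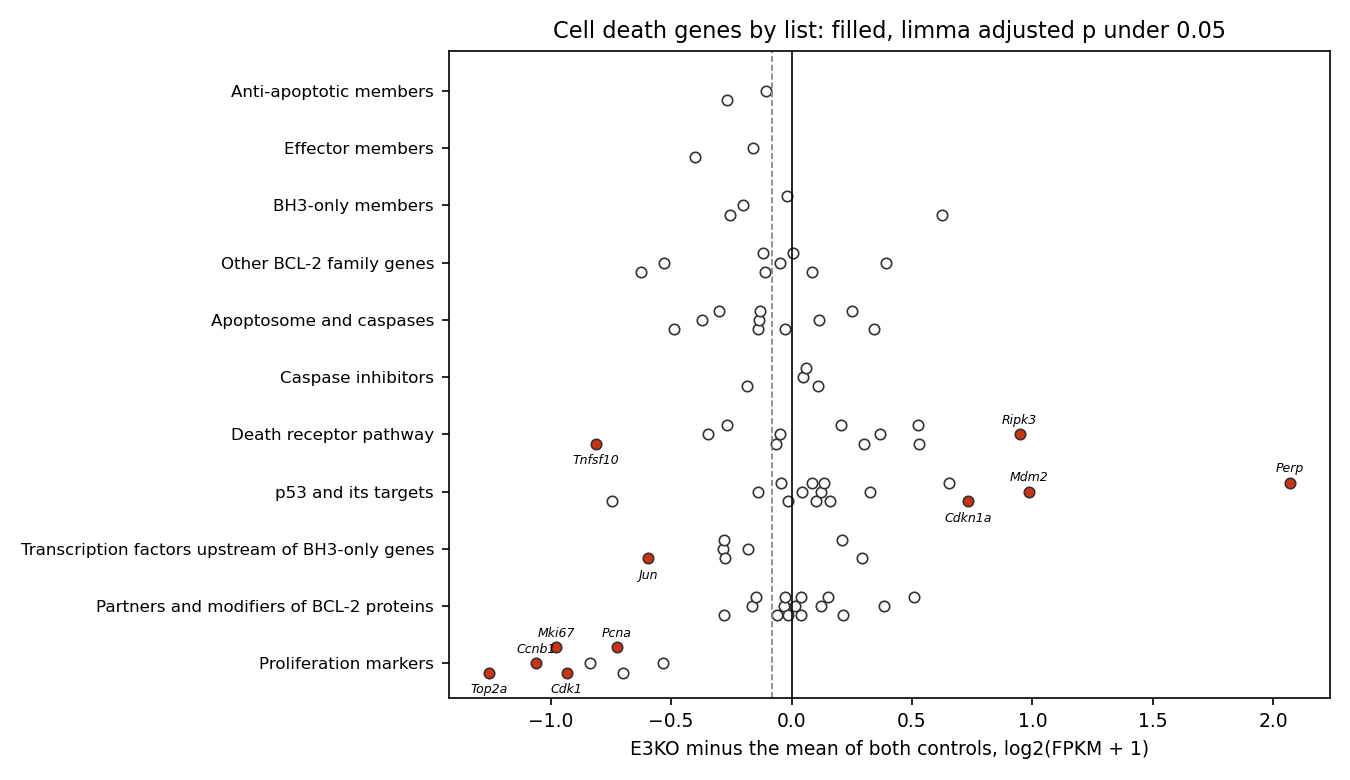
Difference between E3KO and the mean of both controls in log2(FPKM + 1) for each tested gene (points) of 11 lists, with filled and named points where the limma adjusted p was under 0.05; the dashed line is the median of all genes tested, -0.08. The 3 lists of members hold open points only, and the named points lie in the death receptor, p53, transcription factor and proliferation lists.

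Proliferation genes and markers of other cells were followed in the same libraries, and their part in the member values was not tested. Of 8 proliferation genes 5 fell against the mean of both controls (Mki67, Top2a, Ccnb1, Cdk1 and Pcna) and 0 rose, 3 fell against ECtrl (Mki67, Top2a and Pcna), 1 fell against EfCtrl (Mki67), and the sum over the list was 141 to 243 FPKM in controls and 80.1 to 98.4 FPKM in E3KO. Without E3KO replicate 3 none of the 5 calls against the mean of both held, and without EfCtrl replicate 1 or 3 that of Mki67 alone did. In that comparison Ccnb1 was kept under 6 of 18 alternatives, and Ccnb1 and Pcna were lost without E3KO replicate 1 and with the replicate block. Of the calls against ECtrl, Mki67 was kept under 8 of 19 alternatives, Top2a under 6 and Pcna under 2. The call of Mki67 against EfCtrl was kept under 8 of 19. The summed macrophage and leukocyte markers were 83.6 to 291 FPKM in controls and 229 to 360 FPKM in E3KO, with 0 of 6 tested genes called and 4 of 6 at an unadjusted p under 0.05 against the mean of both (5 of 6 against ECtrl, where Itgax came closest with a limma adjusted p of 0.0528, and 1 of 6 against EfCtrl). The control groups also differed here. Between EfCtrl and ECtrl 2 of 6 stood at that unadjusted p (median log2 difference 0.76), where 1.84% of all genes tested did. Itgax averaged 0.862 FPKM in ECtrl, 2.51 in EfCtrl and 3.08 in E3KO. Lyz2, Cd14 and Cd68 had high levels, Fcer1g lay at 26.5 to 37.4 FPKM in E3KO and at 9.46 to 22.9 FPKM in controls, Itgam, at or below 1.98 FPKM, also lay above every control in E3KO, and Ptprc, which marks all leukocytes, averaged 0.79 FPKM in controls and 0.99 FPKM in E3KO; Fcer1g, Itgax, Itgam and Ptprc are named after their values were seen. The summed smooth muscle, pericyte and fibroblast markers were 12.1 to 78.6 and 10.2 to 22.9 FPKM (0 of 5 called), with Acta2, Tagln and Dcn the highest. At an unadjusted limma p under 0.05 stood 3 of these 5 against the mean of both (median log2 difference -1.33, 23.8% of all genes tested). Against EfCtrl it was 4 of 5 (median -1.76, 17.7% of all genes), and against ECtrl 0 of 5 (median -0.89). The control groups also differed, with a median of 0.85 for EfCtrl against ECtrl and 0 of 5 at that p. Col1a1 met the minimum of 2 FPKM only through EfCtrl, with means of 4.37 FPKM in EfCtrl, 1.60 in ECtrl and 0.366 in E3KO. The summed lung epithelial markers were 2.55 to 6.05 FPKM in controls and 51.3, 2.81 and 4.27 FPKM in E3KO (0 of 2 called), set by Scgb1a1 in the library labelled replicate 1, with Nkx2-1 listed at 0 in all 9 libraries. Of 9 tested endothelial markers Emcn was called higher (0.63 ± 0.12, limma adjusted p = 0.0260, up to 0.213 over the alternatives and lost without EfCtrl replicate 1 or 3 or any E3KO library) and 0 were called lower. Against EfCtrl 3 of 9 stood at an unadjusted limma p under 0.05 (17.7% of all genes tested), Emcn higher and Icam2 and Tie1 lower. In these bulk cultures fewer cells of a type and less RNA per cell cannot be told apart.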

How the data were processed

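RNA-seq libraries of cultured mouse lung endothelial cells (ECtrl, EfCtrl and E3KO, 3 each) were used as deposited. Per the study's methods the authors aligned paired reads to mm10 with TopHat2 and assembled and compared transcripts with Cufflinks (1.0.3 in the submitters' processing notes), Cuffmerge and Cuffdiff. The deposited values used here are FPKM per library. Group FPKM by Cuffdiff in the same tables were not the means of the library values, and the authors' fold changes and p-values were not used. All 3 tables held the same per-library values. Read depth per library is unknown, so no counting interval was computed. Whether counting used strand is not given in the sources used here.

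Loci with a shared symbol (3749) or without a per-library value (2) were left out of the test across genes. FPKM were transformed to log2(FPKM + 1), genes with a mean of at least 2 FPKM in a group were kept (10605), and limma 3.58.1 in R 4.3.3 was fitted to all 9 libraries with group as the term and no replicate block, with Benjamini-Hochberg adjustment and a threshold of 0.05. A fold change on this scale understates the change of low genes. Exact permutation tests used log2(FPKM + 0.1), and those of E3KO against the control libraries were not adjusted over the members. Comparisons of 3 against 3 libraries cannot go below an exact p of 0.1 and are given as values. The limma code was tested on simulated data. Alternatives were other pseudocounts, filters and scalings, a replicate block, a mean-variance trend, only the groups compared, and each library left out. An alternative that left out E3KO replicate 1 with median centring was chosen after seeing the data.

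Named genes were all members, the JNK genes, and from each other list the genes called in any comparison or, where none was called, up to 3 with the highest mean FPKM. A gene that this rule names is not reported here. The members and lists were chosen with earlier results of these data known. Each library was an independent isolation. Promoter windows and motif matches were read from RefSeq (GRCm38.p6) for 9 of the 10 members.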

Additional observations from a re-analysis of the deposited data

Results flagged for a closer look

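Among the 6 control libraries of both groups, 2 member values stood apart from the rest by Dixon's criterion. Bad was at 15.9 FPKM in ECtrl replicate 3, and the next highest control was 9.78 FPKM. Bcl2 was at 2.06 FPKM in ECtrl replicate 2, and the next highest control was 1.37 FPKM. The 10 members were examined at both ends, and chance flags about 1 in 20 groups. Without ECtrl replicate 3 the difference of Bad between EfCtrl and ECtrl went from -0.27 to 0.0034, and it was called in neither case. Groups of 3 were not examined.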

How the results depend on the processing

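The count of members called was 0 under every alternative, 19 in each of 3 comparisons and 18 in that with the mean of both controls, and the smallest limma adjusted p of any member was 0.0756 (Pmaip1 against the mean of both controls, with a replicate block). Whether replicate numbers pair the samples cannot be told from the check made. Deviations of same-numbered libraries correlated at -0.04 to 0.12, and those of differently numbered libraries were not computed for reference. With the replicate block 0 members were called, while the count over all genes went from 239 to 1 against ECtrl, from 101 to 1 against EfCtrl and from 509 to 202 against the mean of both controls. Over all genes the count against ECtrl also fell to 95 with no filter on low values and to 0 with only the groups compared, and ranged from 0 to 215 with a library left out; that against EfCtrl fell to 17 with no filter and to 11 without E3KO replicate 1 and with median centring, and ranged from 1 to 218 with a library left out; that against the mean of both fell to 329 without E3KO replicate 1 and with median centring and ranged from 9 to 408 with a library left out. That between EfCtrl and ECtrl ranged from 0 to 4.

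The number of members with E3KO wholly outside the control range was 2 (Bcl2l1, Bcl2l11), was 0 with median centring, and ranged from 2 to 4 with a library left out, where the 4, without E3KO replicate 1, were Bcl2l1, Bcl2l11, Pmaip1 and Bmf, while the share over all genes rose from 16.6% to 26.6%; without that library and with median centring they were Pmaip1 and Bmf (26.4% of all genes). The 6 ordered neighbour pairs stayed 6 under every alternative. The cause of these shifts was not tested.

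Member differences that changed sign, none of them called, were as follows. With median centring Bmf became 0.070 against ECtrl, 0.034 against EfCtrl and 0.052 against the mean of both, and Mcl1 became 0.026 against EfCtrl. With quantile normalisation Bmf became 0.10, 0.11 and 0.11 in the same order and -0.013 between EfCtrl and ECtrl, where Bcl2l11 became 0.018. Without E3KO replicate 1 and with median centring Bad became 0.055 against EfCtrl, Bax 0.091 against the mean of both, and Bcl2l11 0.00556 between EfCtrl and ECtrl. With a library left out, Bmf ranged from -0.32 to 0.16 against ECtrl, from -0.36 to 0.13 against EfCtrl, from -0.34 to 0.14 against the mean of both and from -0.082 to 0.13 between EfCtrl and ECtrl; Bax ranged from -0.12 to 0.22 against ECtrl and from -0.31 to 0.031 against the mean of both; Mcl1 ranged from -0.10 to 0.026 against EfCtrl. Between EfCtrl and ECtrl, Pmaip1 ranged from -0.039 to 0.40, Bcl2l11 from -0.029 to 0.028 and Bad from -0.48 to 0.0034.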
